A study of Mus musculus with 16 samples.

Results

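Genes of mural cells and of meningeal fibroblasts were followed in bulk RNA sequencing of the hippocampus of female mice aged 8 months. The set holds 33 genes out of the 49671 gene rows of the count table. They were chosen by symbol and matched by Ensembl identifier, and they comprise 11 pericyte genes, 9 smooth muscle genes and 13 fibroblast genes. Every one of the 33 passed the filter on low counts and was tested among 16372 genes.

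Hippocampal RNA was sequenced in 16 libraries that cross a tau transgene with a knockout of p16. The 4 PS19_p16KO libraries come from mice with both changes, the 4 PS19 libraries from mice with the transgene and intact p16, the 4 p16KO libraries from knockouts without the transgene, and the 4 WT libraries from mice with neither. PS19 mice express a mutant human tau from the mouse prion promoter, which acts mainly in neurons, and develop tauopathy; p16 is a cell cycle inhibitor encoded by Cdkn2a and a marker of senescent cells. The labels state both genotypes of each sample but do not describe the p16 allele. They also leave unsaid whether each sample of a group is its own animal, and the p-values below therefore speak only of the variation among the samples, part of which may be technical. Each library is named here by its group and replicate number, as in WT_3.

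Pericytes lie inside the basement membrane of capillaries, touch the endothelium and depend on PDGF-B, which endothelial cells release and pericytes receive through the receptor Pdgfrb. Smooth muscle cells ring arterioles and narrow them with a contractile apparatus of actin, myosin and their partners, much of it under the control of serum response factor. Fibroblasts of the meninges, of large vessels and of the choroid plexus stroma make fibrillar collagens and small proteoglycans, and those of the arachnoid form a barrier layer with its own transporters. All of these are rare cells in hippocampal tissue, and in bulk RNA fewer cells of a type and less RNA per cell cannot be told apart.

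The libraries held 18485552 to 22311322 gene counts. Cdkn2a had 0 to 1 counts per library in PS19_p16KO, 1 to 8 in PS19, 0 to 1 in p16KO and 1 to 4 in WT, so it was near the detection limit in every group and checks the labels only weakly. Markers of hippocampal neurons (8 genes) summed to between 1162 and 1385 CPM, gene counts scaled to the size of the library, in every library, with no marker at 0. Endothelial markers (20 genes) summed to between 452 and 565 CPM. Choroid plexus markers (16 genes) did not run evenly: they summed to 6261 CPM in PS19_p16KO_3, 3743 CPM in p16KO_4, 978 CPM in WT_1 and 226 CPM in p16KO_1, against 48.2 to 82.4 CPM in the other 12 libraries.

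At the level of the single gene the set spans more than an order of magnitude. Per kilobase of exon and averaged over the 16 libraries, Vtn, which encodes the adhesive glycoprotein vitronectin, was the highest at 15.9 CPM per kb, followed by the growth factor gene Igf2 at 11.0 and the pericyte gene Rgs5 at 9.20. The proteoglycan gene Dcn had 6.01, the smooth muscle genes Myl9 and Acta2 had 4.59 and 4.18, and Pdgfrb had 3.17 CPM per kb. At the low end stood Cnn1 at 0.167 and Col3a1 at 0.180 CPM per kb. The 3 classes therefore overlapped in level.

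The classes differed in how far replicates of a group lay apart. The SD of log2 CPM within groups had a median of 0.33 over the pericyte genes, 0.45 over the smooth muscle genes and 0.65 over the fibroblast genes. Over all tested genes this median was 0.15. Over the 11233 tested genes between the lowest and the highest member in mean level it was 0.20. Those genes were not matched to the members by level, and the part of low counts in these SDs was not tested. The steadiest of the 33 genes had an SD of 0.10 and the least steady, Igf2, of 1.25.

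Much of that spread sat in few libraries. WT_3 and p16KO_2 were the 2 highest of the 16 libraries for 7 of the 13 fibroblast genes, for 2 of the 9 smooth muscle genes and for 3 of the 11 pericyte genes. Against the median of the other libraries of its group, WT_3 was higher by a median of 2.25-fold over the fibroblast genes, 1.41-fold over the smooth muscle genes and 1.31-fold over the pericyte genes. In p16KO_2 the same medians were 1.74-fold, 1.56-fold and 1.17-fold. Both libraries were also the highest in markers of border macrophages, the macrophages of meninges and perivascular spaces, with a sum over 9 genes of 33.4 CPM in p16KO_2 and 32.2 CPM in WT_3, against 14.2 to 26.4 CPM elsewhere. Their choroid plexus sums of 81.1 and 66.8 CPM lay in the low range. The labels say nothing of how the tissue was freed of meninges, and the part of attached meninges in these levels was not tested.

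A second pattern went with the choroid plexus markers. PS19_p16KO_3, the library highest in those markers, had a median fold over the rest of its group of 1.51 for the fibroblast genes, 1.002 for the smooth muscle genes and 0.997 for the pericyte genes. A further list of 39 fibroblast and matrix genes, which holds carriers and binding proteins that choroid plexus epithelium also makes, summed to 1075 CPM there. The same list summed to 1119 CPM in p16KO_2, 1021 CPM in WT_3 and 830 CPM in p16KO_4, and its lowest sum was 399 CPM. Fits without the 3 libraries highest in choroid plexus markers, and fits with the level of those markers as a covariate, are given with some of the comparisons.

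**Figure D1:**
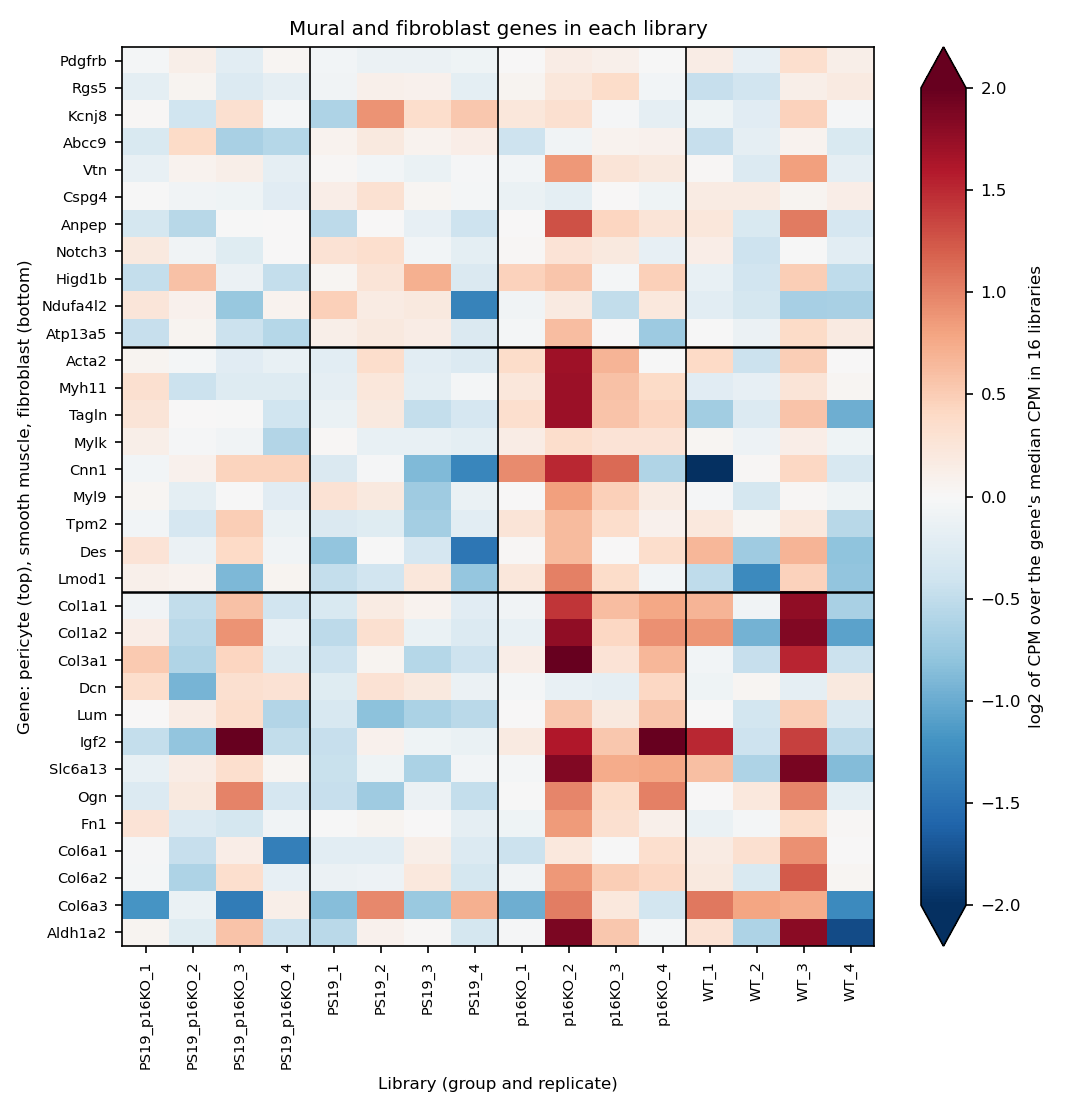
Level of each of the 33 genes in each of the 16 libraries, as log2 of its CPM over that gene's median CPM in all libraries (colour, capped at 2 either way), with genes in rows by class and libraries in columns by group. The columns p16KO_2 and WT_3 are dark red over Col1a1, Col1a2, Col3a1, Slc6a13 and Aldh1a2, and p16KO_2 also over Acta2, Myh11 and Tagln.

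**Figure D2:**
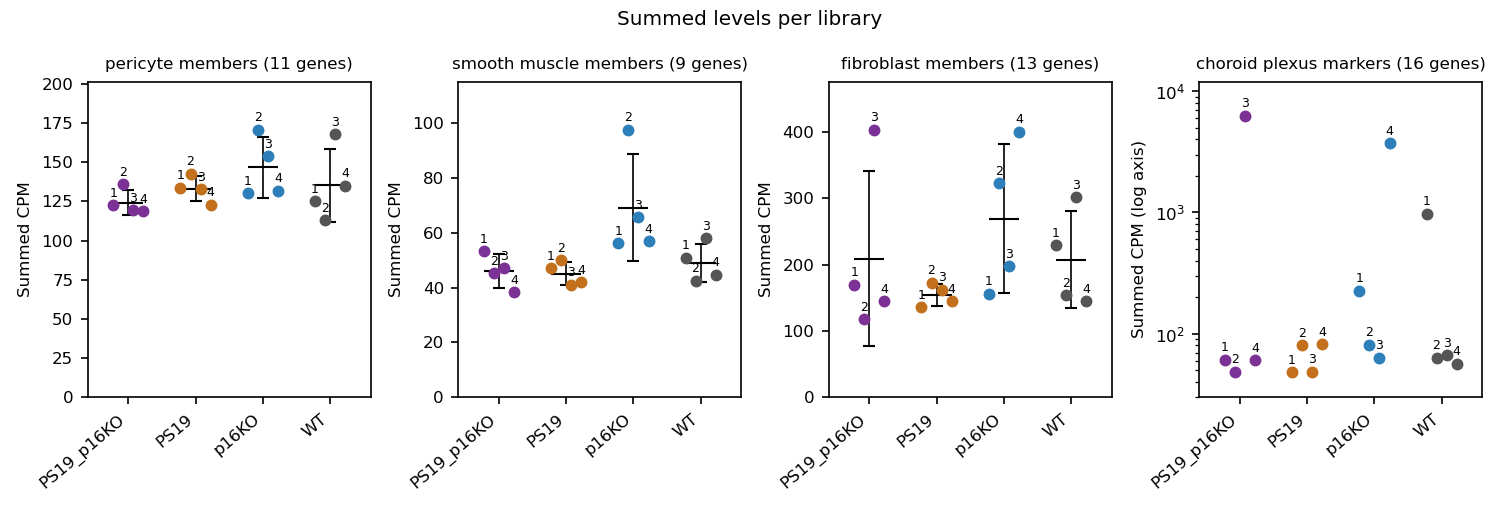
Summed CPM of the pericyte, smooth muscle and fibroblast genes and of the choroid plexus markers (log axis) in each library, by group, with replicate numbers beside the points; bars give the mean and SD of 4 libraries. Pericyte sums lie close together, p16KO_2 stands at 97.7 CPM for smooth muscle genes, and the fibroblast sums are highest in PS19_p16KO_3 and p16KO_4, where Igf2 and the choroid plexus markers are high.

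The pericyte genes made the steadiest class. Their summed level averaged 124 ± 8.10 CPM in PS19_p16KO, 133 ± 8.06 CPM in PS19, 147 ± 19.3 CPM in p16KO and 135 ± 23.4 CPM in WT (SD, n = 4 each). Pdgfrb (GRCm38 chr18:61045150-61085061, plus strand), the receptor that recruits pericytes, had 16.7, 18.5, 14.7 and 17.6 CPM in PS19_p16KO, 16.4, 15.8, 15.8 and 16.2 CPM in PS19, 17.2, 19.0, 18.3 and 17.0 CPM in p16KO and 19.0, 15.2, 21.7 and 18.5 CPM in WT. The PS19 libraries were nearly equal and lay inside the WT range. Rgs5, a brake on G protein signals and a classic pericyte marker, had 37.2, 44.2, 35.0 and 37.5 CPM in PS19_p16KO, 40.6, 45.3, 45.2 and 37.1 CPM in PS19, 43.9, 49.7, 54.8 and 41.0 CPM in p16KO and 30.8, 32.5, 46.0 and 48.1 CPM in WT. Its groups overlapped in every pairing, and the highest library was p16KO_3.

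Cspg4 encodes the proteoglycan NG2, which pericytes share with oligodendrocyte precursor cells, so its bulk level is not that of pericytes alone. It had 19.6, 18.7, 18.7 and 16.9 CPM in PS19_p16KO, 21.5, 24.3, 20.3 and 19.1 CPM in PS19, 18.0, 17.2, 19.8 and 18.6 CPM in p16KO and 22.1, 22.01, 20.4 and 21.5 CPM in WT. The p16KO libraries all lay below the WT libraries, while PS19_p16KO_1 lay above PS19_4. Averaged over both backgrounds the fitted log2 difference of the knockout was -0.21 ± 0.05 (edgeR unadjusted p = 0.000684, adjusted p = 0.144), with mean levels lower in both knockout groups. It did not pass the threshold, and over the other settings its adjusted p ran from 0.0507, given by DESeq2, to 0.332.

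Vtn had 26.7, 31.1, 32.1 and 26.1 CPM in PS19_p16KO, 30.04, 28.5, 27.0 and 29.2 CPM in PS19, 28.5, 53.9, 35.6 and 33.9 CPM in p16KO and 30.2, 24.4, 52.5 and 26.2 CPM in WT. p16KO_2 and WT_3 were its 2 highest libraries, and the next, p16KO_3, had 35.6 CPM. Anpep, the membrane aminopeptidase CD13 of pericytes and also of meningeal fibroblasts, had 1.52, 1.31, 1.93 and 1.95 CPM in PS19_p16KO, 1.34, 1.94, 1.72 and 1.45 CPM in PS19, 1.94, 4.68, 2.62 and 2.30 CPM in p16KO and 2.25, 1.57, 3.97 and 1.54 CPM in WT. The same 2 libraries were its highest, in the same order.

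Abcc9, the sulfonylurea receptor subunit of the pericyte KATP channel, had 3.41, 5.45, 2.68 and 2.81 CPM in PS19_p16KO, 4.41, 4.80, 4.41 and 4.61 CPM in PS19, 3.15, 4.01, 4.41 and 4.44 CPM in p16KO and 3.04, 3.72, 4.39 and 3.395 CPM in WT. Its PS19 libraries all lay just above the WT libraries, the only such case among the pericyte genes in that comparison, where 3.52% of all tested genes lay higher without overlap. Kcnj8, the pore subunit of the same channel, ran from 1.13 to 3.20 CPM over all libraries and both extremes were PS19 libraries. Notch3, the receptor through which endothelial Jagged and Delta ligands keep mural cells differentiated, ran from 7.22 to 12.2 CPM, the transport ATPase gene Atp13a5 from 2.51 to 6.37 CPM, and the mitochondrial protein genes Higd1b and Ndufa4l2 stayed at or below 0.861 and 1.505 CPM. The exons of Ndufa4l2 overlap those of Shmt2 on the opposite strand, which had 4820 counts in all against 315, so its counts may include reads of that neighbour.

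Smooth muscle genes stood apart in 1 library. Their sum averaged 46.0 ± 6.12 CPM in PS19_p16KO, 45.1 ± 4.23 CPM in PS19, 69.2 ± 19.5 CPM in p16KO and 49.0 ± 6.96 CPM in WT (SD, n = 4 each), and p16KO_2 was the highest of all 16 libraries in 8 of the 9 genes. Acta2 (GRCm38 chr19:34241090-34255590, minus strand), the smooth muscle actin, had 7.92, 7.39, 6.54 and 6.92 CPM in PS19_p16KO, 6.61, 9.76, 6.56 and 6.32 CPM in PS19, 9.86, 24.7, 12.3 and 7.63 CPM in p16KO and 10.1, 5.69, 10.8 and 7.64 CPM in WT. p16KO_2 and p16KO_3 lay above all WT libraries, while p16KO_1 and p16KO_4 lay inside the WT range. Myh11 (GRCm38 chr16:14194535-14291372, minus strand), the smooth muscle myosin heavy chain, had 7.58, 4.51, 5.09 and 5.08 CPM in PS19_p16KO, 5.38, 7.09, 5.33 and 5.89 CPM in PS19, 7.07, 19.9, 9.08 and 7.89 CPM in p16KO and 5.19, 5.42, 7.30 and 6.26 CPM in WT. Here p16KO_1 was the one p16KO library below the highest WT library.

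The promoters of these contractile genes are shown because a shared control element, the CArG box bound by serum response factor, is the textbook link between them. Windows of 300 bases around gene starts, from RefSeq on GRCm38.p6, were searched on both strands for a CArG box, a CC and a GG around a core of 6 A or T bases, and for the same box with 1 G or C in the core. Of the 9 smooth muscle genes 7 had a window, and Myl9 was the one gene with an exact box in it, while Myl9 and Acta2 held boxes with 1 change in the core. Each window ran from 250 bases before the start to 50 bases after it. Boxes further away were not searched for, so a window without a box does not show that the gene lacks one. Exact boxes were found in 1.63% of all 32851 windows, and exact or changed boxes in 9.98%. For fibroblast genes 1 of 15 windows held an exact box and 3 held either kind, and for pericyte genes 0 of 8 windows did. The 250 bases before each start are printed 5′ to 3′, with the boxes in capitals. Acta2, at chr19:34255374-34255623 on the minus strand, has boxes that begin 84 and 34 bases before the start, and Myl9, at chr2:156775214-156775463 on the plus strand, has boxes that begin 161 and 99 bases before it.
Acta2: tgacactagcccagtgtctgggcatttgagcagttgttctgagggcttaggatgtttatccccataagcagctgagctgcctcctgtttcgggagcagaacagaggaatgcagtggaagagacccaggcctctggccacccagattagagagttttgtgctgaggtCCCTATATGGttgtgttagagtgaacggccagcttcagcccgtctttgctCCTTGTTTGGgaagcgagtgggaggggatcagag
Myl9: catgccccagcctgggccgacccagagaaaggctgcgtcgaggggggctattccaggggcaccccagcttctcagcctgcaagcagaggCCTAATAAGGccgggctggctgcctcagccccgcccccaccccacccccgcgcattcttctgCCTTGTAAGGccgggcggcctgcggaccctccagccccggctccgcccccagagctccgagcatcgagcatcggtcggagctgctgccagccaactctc
A matched box is a description of the sequence and was not tied to any level measured here.

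Myl9, the regulatory light chain of smooth muscle myosin, had 5.26, 4.51, 5.09 and 4.38 CPM in PS19_p16KO, 6.29, 5.87, 3.12 and 4.66 CPM in PS19, 5.18, 9.04, 7.13 and 5.75 CPM in p16KO and 5.03, 4.03, 5.24 and 4.83 CPM in WT. Its p16KO libraries lay above all WT libraries except p16KO_1, which was just inside the WT range, and PS19_1 and PS19_2 lay above p16KO_4. Mylk, the kinase that switches that light chain on and a gene also transcribed outside smooth muscle, had 24.6, 22.2, 21.6 and 15.04 CPM in PS19_p16KO, 23.1, 20.5, 20.6 and 19.9 CPM in PS19, 25.2, 29.1, 27.4 and 27.5 CPM in p16KO and 23.2, 21.2, 24.9 and 21.3 CPM in WT. All p16KO libraries lay above all WT and all PS19_p16KO libraries, although p16KO_1 did so by a narrow margin. Among all tested genes 1.75% were higher in p16KO than in WT without overlap, and 1.47% were lower in PS19_p16KO than in p16KO without overlap.

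Tagln, which encodes the actin-binding protein SM22, had 1.61, 1.36, 1.34 and 1.03 CPM in PS19_p16KO, 1.24, 1.55, 0.969 and 1.07 CPM in PS19, 1.71, 4.42, 2 and 1.83 CPM in p16KO and 0.838, 1.12, 2.01 and 0.690 CPM in WT. All PS19_p16KO libraries lay below all p16KO libraries, and WT_3 was the one WT library within the p16KO range. Tagln shares exonic sequence with Pcsk7 on the opposite strand, which had 5542 counts in all against 487 for Tagln, so its counts may include reads of that neighbour. Tpm2, a tropomyosin, had 3.32, 2.73, 4.82 and 3.14 CPM in PS19_p16KO, 2.80, 2.91, 2.15 and 2.95 CPM in PS19, 4.10, 5.34, 4.36 and 3.66 CPM in p16KO and 3.98, 3.54, 3.97 and 2.33 CPM in WT. Des, the intermediate filament desmin, had 1.23, 0.944, 1.34 and 0.974 CPM in PS19_p16KO, 0.591, 1.02, 0.807 and 0.375 CPM in PS19, 1.04, 1.59, 1.03 and 1.31 CPM in p16KO and 1.62, 0.628, 1.64 and 0.583 CPM in WT. For Des the highest and the lowest WT libraries were further apart than the group means. The calponin gene Cnn1 ran from 0.0524 to 1.13 CPM and the leiomodin gene Lmod1 from 0.493 to 2.42 CPM, with p16KO_2 the highest library in both.

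Fibroblast genes varied most, and not in a single way. Their sum averaged 209 ± 132 CPM in PS19_p16KO, 154 ± 16.7 CPM in PS19, 270 ± 113 CPM in p16KO and 207 ± 73.3 CPM in WT (SD, n = 4 each), and Igf2 made up much of the differences. Igf2 (GRCm38 chr7:142650766-142666816, minus strand), an imprinted growth factor of meninges and choroid plexus, had 20.8, 16.8, 251 and 20.7 CPM in PS19_p16KO, 21.1, 30.8, 27.4 and 26.6 CPM in PS19, 33.1, 88.2, 42.3 and 226 CPM in p16KO and 82.7, 21.7, 74.7 and 20.2 CPM in WT. Its 2 highest libraries, PS19_p16KO_3 and p16KO_4, are the 2 with the highest choroid plexus sums, and next come p16KO_2, WT_1 and WT_3. Ogn, the small proteoglycan osteoglycin, had 6.02, 8.34, 14.5 and 5.79 CPM in PS19_p16KO, 5.27, 4.42, 6.73 and 5.20 CPM in PS19, 7.25, 14.3, 9.38 and 14.6 CPM in p16KO and 7.28, 8.38, 14.3 and 6.36 CPM in WT. Its 4 highest libraries are the 2 highest in choroid plexus markers together with p16KO_2 and WT_3.

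The fibrillar collagens followed p16KO_2 and WT_3 more than the choroid plexus libraries. Col1a2, a chain of type I collagen, had 7.58, 4.77, 12.97 and 6.28 CPM in PS19_p16KO, 4.84, 8.64, 6.30 and 5.73 CPM in PS19, 6.26, 23.8, 9.28 and 13.1 CPM in p16KO and 12.7, 3.59, 25.0 and 3.29 CPM in WT. Slc6a13, a GABA and taurine transporter of leptomeningeal barrier fibroblasts, had 3.84, 4.72, 5.36 and 4.38 CPM in PS19_p16KO, 3.12, 4.03, 2.74 and 4.13 CPM in PS19, 4.14, 15.3, 7.13 and 7.26 CPM in p16KO and 6.44, 2.78, 15.8 and 2.33 CPM in WT. Aldh1a2, which makes retinoic acid in arachnoid fibroblasts, had 3.41, 2.78, 4.88 and 2.43 CPM in PS19_p16KO, 2.26, 3.49, 3.34 and 2.57 CPM in PS19, 3.24, 12.1, 4.77 and 3.19 CPM in p16KO and 4.03, 2.15, 11.53 and 0.955 CPM in WT. Each of these genes had WT_3 and p16KO_2 as its 2 highest libraries, and so did Col1a1, Col3a1, Col6a2 and Fn1; Col1a1, Col1a2, Col3a1, Slc6a13 and Aldh1a2 are given here after their values were seen. Col1a1 ran from 3.92 CPM in WT_4 to 21.1 CPM in WT_3, so that both ends of its range were WT libraries. Col3a1 ran from 0.891 to 5.65 CPM.

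The other matrix genes were less extreme. Fn1, fibronectin, a gene that endothelial cells also transcribe, had 53.6, 36.8, 34.7 and 42.0 CPM in PS19_p16KO, 43.8, 45.9, 44.6 and 38.8 CPM in PS19, 41.5, 79.4, 54.9 and 47.2 CPM in p16KO and 40.2, 42.8, 57.1 and 45.1 CPM in WT. Col6a1, a chain of the microfibrillar type VI collagen, had 13.1, 9.65, 14.6 and 5.14 CPM in PS19_p16KO, 11.4, 11.4, 14.4 and 11.0 CPM in PS19, 9.91, 15.4, 13.2 and 16.7 CPM in p16KO and 14.98, 16.6, 25.0 and 13.4 CPM in WT. WT_3 was its highest library and PS19_p16KO_4 its lowest. Its partner Col6a2 had 4.60, 3.09, 5.95 and 4.22 CPM in PS19_p16KO, 4.35, 4.42, 5.49 and 3.70 CPM in PS19, 4.50, 8.63, 6.67 and 6.32 CPM in p16KO and 5.45, 3.86, 11.1 and 4.88 CPM in WT, while Col6a3 ran from 1.501 to 8.23 CPM with no order by group.

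Dcn, decorin, did not follow these libraries. It had 43.6, 17.8, 42.4 and 41.4 CPM in PS19_p16KO, 28.9, 41.6, 38.9 and 31.4 CPM in PS19, 33.1, 30.6, 30.2 and 45.5 CPM in p16KO and 32.2, 34.9, 29.9 and 38.9 CPM in WT. WT_3 was the lowest WT library for Dcn, and PS19_p16KO_2 was the lowest of all. Lum, lumican, a related proteoglycan that spaces collagen fibrils, had 3.79, 4.14, 4.77 and 2.49 CPM in PS19_p16KO, 3.01, 2.14, 2.42 and 2.57 CPM in PS19, 3.78, 5.45, 4.31 and 5.54 CPM in p16KO and 3.72, 2.91, 5.29 and 3.08 CPM in WT. Its PS19 libraries were low and close together, with PS19_1 the one library among them that overlapped WT.

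The effect of the tau transgene with p16 intact was read from PS19 against WT. No member passed edgeR's quasi-likelihood test, 0 of 33, where 1.61% of all tested genes did. At an unadjusted p under 0.05 stood 3 members, where 9.57% of all tested genes did, and the 3 were all lower in PS19, where 2.77% of all tested genes were lower at that level; DESeq2 and limma-voom called 0 members and had 3 and 4 at that level. The 3 were Lum, with a log2 difference of -0.57 ± 0.22 (edgeR adjusted p = 0.340), Ogn, with -0.75 ± 0.33 (edgeR adjusted p = 0.480), and Pdgfrb, with -0.21 ± 0.09 (edgeR adjusted p = 0.451). By class, the median log2 difference was 0.09 over the pericyte genes, with 6 of 11 positive, -0.11 over the smooth muscle genes, with 3 of 9 positive, and -0.67 over the fibroblast genes, with 1 of 13 positive, against -0.01 over all tested genes. Without WT_3 alone the fibroblast median was -0.14, and it was the same without both WT_3 and p16KO_2. That pair was picked after its high levels of members were seen. The count of members at an unadjusted p under 0.05 was 0 without WT_3, 1 without PS19_2, 6 without WT_2 and 8 without WT_4. Choroid plexus markers had a median of -1.54 in this comparison, and the fibroblast median was -0.62 without the 3 libraries highest in them and -0.53 with their level as a covariate. Border macrophage markers had a median of -0.29, and their part in the fibroblast values was not tested.

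For the knockout on its own, p16KO was set against WT. Again 0 of 33 members were called by edgeR, where 0% of all tested genes were; over all tested genes DESeq2 called 18 and limma-voom 11. At an unadjusted p under 0.05 were 8 members, where 3.99% of all tested genes were, and 7 of the 8 were smooth muscle genes, all higher in p16KO, where 2.11% of all tested genes were higher at that level; DESeq2 and limma-voom called 0 members and had 8 and 9 at that level. The differences on the log2 scale were 1.19 ± 0.47 for Cnn1, 1.09 ± 0.33 for Tagln (edgeR adjusted p = 0.780), 0.86 ± 0.27 for Myh11 (edgeR adjusted p = 0.868), 0.83 ± 0.35 for Lmod1, 0.67 ± 0.30 for Acta2, 0.50 ± 0.19 for Myl9 and 0.27 ± 0.11 for Mylk. Cspg4 was the eighth, at -0.23 ± 0.07 (edgeR adjusted p = 0.873), and 1.24% of all tested genes were lower without overlap, as it was. The class medians were 0.19 for pericyte genes, 0.67 for smooth muscle genes, where 9 of 9 values were positive, and 0.26 for fibroblast genes, where 11 of 13 were. Without p16KO_2 the medians were -0.03, 0.33 and -0.12, and 3 members, 2 of them smooth muscle genes, had an unadjusted p under 0.05. That count was 4 without WT_2, with 3 smooth muscle genes, and 15 without WT_3, with 7. Without both p16KO_2 and WT_3 they were 0.23, 0.37 and 0.48, with 9 of 9 smooth muscle values still positive. Choroid plexus markers had a median of 1.47 in this comparison, and without the 3 libraries highest in them the smooth muscle median was 0.91 and the fibroblast median 0.26.

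For the knockout on the transgenic background, PS19_p16KO was set against PS19. Of the 33 members 0 were called by edgeR, where 0.825% of all tested genes were. At an unadjusted p under 0.05 were 2 members, where 8.59% of all tested genes were: Lum, higher at 0.59 ± 0.22 on the log2 scale (edgeR adjusted p = 0.346), and Cspg4, lower at -0.20 ± 0.08 (edgeR adjusted p = 0.361). DESeq2 and limma-voom called 0 members and had 3 and 1 at that level. The class medians were -0.12, 0.15 and 0.22 for pericyte, smooth muscle and fibroblast genes. Among the fibroblast genes, Igf2 had 251 CPM in PS19_p16KO_3 and no more than 20.8 CPM in the other PS19_p16KO libraries, against 21.1 to 30.8 CPM in PS19. Without the 3 libraries highest in choroid plexus markers, whose own median difference was 3.39 here, the fibroblast median was -0.02, and with their level as a covariate it was 0.05. The count of members at an unadjusted p under 0.05 was 5 without PS19_p16KO_2 and 1 without PS19_p16KO_3. Since this comparison and the one of PS19 with WT share the PS19 libraries, opposite signs in them, as for Lum, are not independent.

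The transgene without p16 was read from PS19_p16KO against p16KO. Of the 33 members 0 were called by edgeR, where 0.0183% of all tested genes were. At an unadjusted p under 0.05 were 6 members, where 3.65% of all tested genes were, and the 6 were all lower in PS19_p16KO, where 1.79% of all tested genes were lower at that level; DESeq2 and limma-voom called 0 members and had 8 and 9 at that level. On the log2 scale the differences were -0.97 ± 0.27 for Myh11, -0.91 ± 0.31 for Acta2, -0.88 ± 0.33 for Tagln, -0.77 ± 0.30 for Anpep, -0.48 ± 0.19 for Myl9 and -0.38 ± 0.11 for Mylk, with an edgeR adjusted p of 0.999 for each. The class medians were -0.14, -0.54 and -0.54, and every value but those of Cspg4 and Dcn was negative. Without both WT_3 and p16KO_2 the medians were -0.10, -0.34 and -0.26, and 3 members were at an unadjusted p under 0.05. That count was also 3 without p16KO_2 alone, 10 without PS19_p16KO_3, 10 without p16KO_4 and 13 without WT_3. Without the 3 libraries highest in choroid plexus markers, which had a median of 0.56 here, it was 11 and the fibroblast median was -0.71.

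**Figure D3:**
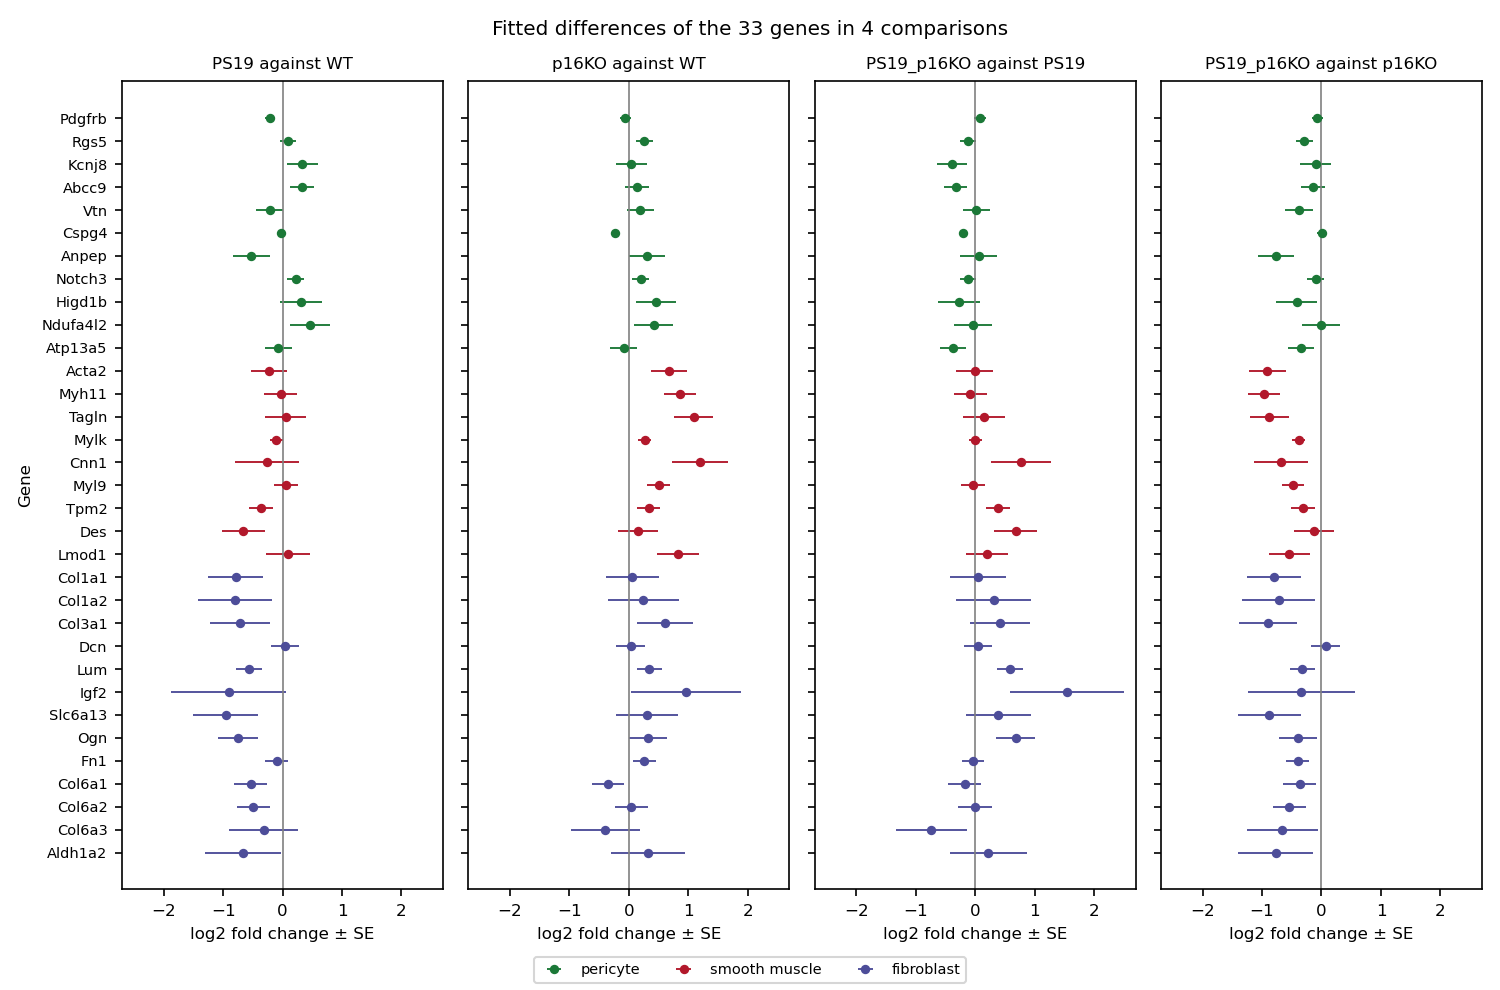
Fitted log2 fold change of each of the 33 genes with its standard error in 4 comparisons, coloured by class. The smooth muscle genes lie right of 0 in p16KO against WT and left of 0 in PS19_p16KO against p16KO, comparisons that share the p16KO libraries, and the fibroblast genes have the widest errors.

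The averages over both backgrounds and the interaction gave the same picture of no calls. For the transgene averaged over p16, edgeR called 0 of 33 members, where 0.391% of all tested genes were called, and 13 members had an unadjusted p under 0.05, all lower with the transgene, where 3.77% of all tested genes were lower at that level; DESeq2 and limma-voom called 0 and had 13 and 11. Mylk came first with -0.24 ± 0.08 on the log2 scale (edgeR adjusted p = 0.232), then Anpep with -0.65 ± 0.22 (edgeR adjusted p = 0.277) and Lum with -0.44 ± 0.15 (edgeR adjusted p = 0.312). Those 13 were 7 fibroblast, 4 smooth muscle and 2 pericyte genes, and the class medians were -0.57, -0.40 and -0.06 in that order. Without WT_3 and p16KO_2, both of them libraries without the transgene, 1 of 33 members was at an unadjusted p under 0.05, and the medians were -0.23, -0.21 and -0.03. Both libraries were picked after their high levels of members were seen, so leaving them out was bound to weaken values lower with the transgene. The change is therefore not a test of the transgene. With 1 library left out at a time, the count ran from 5 without WT_3 to 15 without WT_2 or p16KO_1. It was 6 without p16KO_2, 8 without PS19_p16KO_4 and 14 without WT_4. Border macrophage markers had a median of -0.53 in the same average, and their part was not tested.

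For the knockout averaged over the transgene, edgeR called 0 of 33 members, where 0.226% of all tested genes were called, and 6 members had an unadjusted p under 0.05, where 7.96% of all tested genes had; DESeq2 and limma-voom called 0 and had 8 and 7. Beside Cspg4, given above, these were Lum with 0.47 ± 0.15 (edgeR adjusted p = 0.331), Ogn with 0.50 ± 0.23, Cnn1 with 0.98 ± 0.35, Tagln with 0.62 ± 0.24 and Tpm2 with 0.35 ± 0.14 on the log2 scale. With 1 library left out at a time, the count ran from 4 without p16KO_2 to 13 without WT_3, and it was 10 without both WT_3 and p16KO_2. The medians were 0.04 for pericyte genes, 0.39 for smooth muscle genes and 0.27 for fibroblast genes. The fibroblast median was 0.05 without p16KO_2 and 0.57 without WT_3, and the smooth muscle median was 0.30 without p16KO_2. Choroid plexus markers had a median of 2.41 in this average, with 16 of 16 positive and 6 at an unadjusted p under 0.05, and the fibroblast median was 0.14 without the 3 libraries highest in them and 0.16 with their level as a covariate. The interaction, which asks whether the knockout acts differently with and without the transgene, had 0 of 33 members called by edgeR, where 0.00611% of all tested genes were, and 1 member at an unadjusted p under 0.05, where 5.44% of all tested genes were. That member was Myh11 with -0.93 ± 0.39 (edgeR adjusted p = 0.774), or -0.58 without both libraries, and with 1 library left out at a time the count ran from 0 without WT_1, WT_2, p16KO_2, PS19_2, PS19_p16KO_3 or PS19_p16KO_4 to 5 without p16KO_4. DESeq2 and limma-voom called 0 members there and had 2 and 0 at that level.

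**Figure D4:**
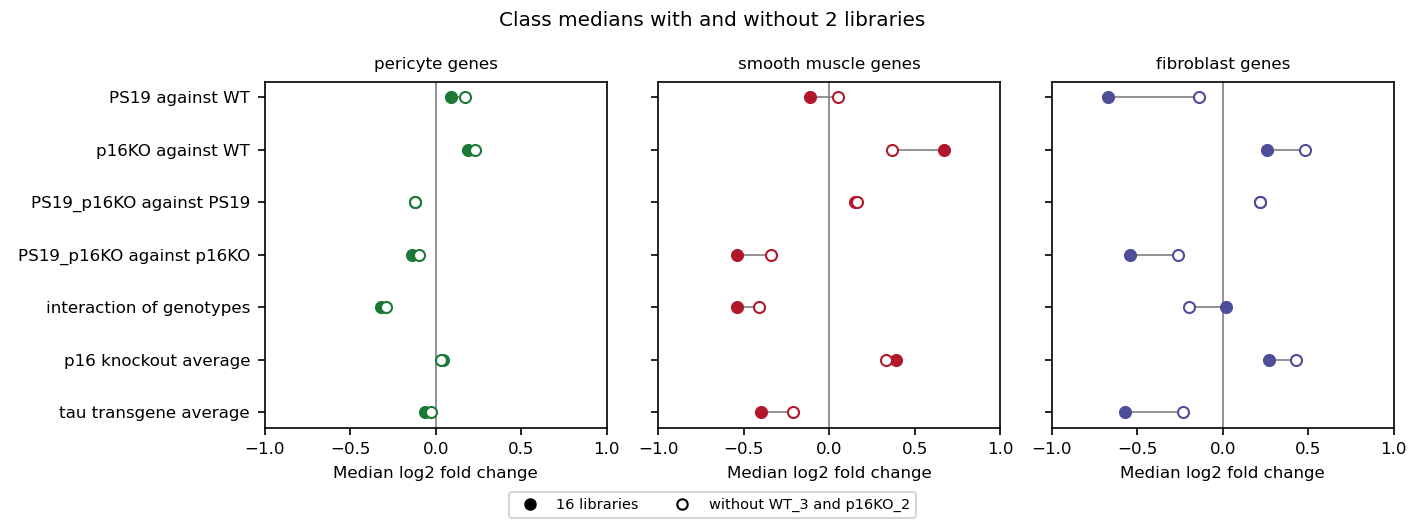
Median log2 fold change of each class in the 7 comparisons with all 16 libraries (filled) and without WT_3 and p16KO_2 (open). The libraries left out were picked after their high levels of members were seen. The fibroblast median of PS19 against WT is -0.67 with all libraries and -0.14 without the 2, and the pericyte medians lie between -0.32 and 0.23 in both.

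Partners of these genes, taken from lists drawn up with earlier results of these data known, held a few calls. Their counts beside those of all tested genes are therefore descriptions only. Of 29 genes of PDGF, Notch, TGF-beta and angiopoietin signals between endothelium and mural cells, 3 rose in PS19 against WT by edgeR and 0 fell. Over all 16372 tested genes 264 (1.61%) were called in that comparison, 255 higher in PS19 and 9 lower. Tgfbr2, the receptor that binds TGF-beta, averaged 34.9 CPM in PS19 and 19.95 CPM in WT (log2 0.80 ± 0.13, edgeR adjusted p = 0.00338), its signalling partner Tgfbr1 49.5 CPM in PS19 and 30.2 CPM in WT (log2 0.71 ± 0.12, edgeR adjusted p = 0.00338), and the ligand gene Tgfb1 8.37 CPM in PS19 and 4.65 CPM in WT (log2 0.84 ± 0.18, edgeR adjusted p = 0.0151). Both receptor genes were lower in PS19_p16KO than in PS19, by -0.67 ± 0.13 for Tgfbr2 (edgeR adjusted p = 0.0234) and -0.58 ± 0.12 for Tgfbr1 (edgeR adjusted p = 0.0254). Angpt1, the ligand of the endothelial receptor Tek, fell as well and averaged 6.89 CPM in PS19_p16KO and 11.1 CPM in PS19 (log2 -0.68 ± 0.14, edgeR adjusted p = 0.0234). Of all tested genes 0.825% were called in PS19_p16KO against PS19, 127 lower and 8 higher. Without WT_3 and p16KO_2 the PS19 against WT values were 0.88 for Tgfbr2 (edgeR adjusted p = 0.0114), 0.70 for Tgfbr1 (edgeR adjusted p = 0.0209) and 0.88 for Tgfb1, which then missed the threshold (edgeR adjusted p = 0.0531). Tgfb1 also missed it without WT_1, WT_2, PS19_1 or PS19_2 (edgeR adjusted p = 0.0544, 0.0562, 0.0959 and 0.0666). It stayed called in 22 of 28 other settings, while both receptor genes stayed called in all 28. In PS19_p16KO against PS19, each of Tgfbr2, Tgfbr1 and Angpt1 missed the threshold without PS19_1, PS19_2, PS19_p16KO_1, PS19_p16KO_2 or PS19_p16KO_4, and Tgfbr1 also without PS19_p16KO_3, with edgeR adjusted p from 0.0625 to 0.121. With only the groups compared in the fit, edgeR adjusted p was 0.218, 0.169 and 0.179 for Tgfbr2, Tgfbr1 and Angpt1. Over 28 other settings these 3 genes stayed called in 19, 17 and 22.

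Microglia also transcribe the TGF-beta genes, and the sum of microglial markers moved the same way, though not every marker did. The sum of 7 such markers was 342 ± 17.4 CPM in PS19_p16KO, 544 ± 152 CPM in PS19, 340 ± 29.6 CPM in p16KO and 297 ± 16.6 CPM in WT (SD, n = 4 each), and 5 of the 7 rose in PS19 against WT by edgeR. Fitted values there were positive for 6 of the 7 and negative for 1. In PS19_p16KO against PS19, 5 of the 7 were negative and 2 positive, 1 of them at an edgeR unadjusted p under 0.05. Called there by edgeR were 2, Csf1r and C1qa, both lower. They stayed called in 9 and 6 of 28 other settings. The part of microglia in the TGF-beta values was not tested. Of 16 tested contractile genes outside the 33, Ppp1r14a, an inhibitor of myosin phosphatase that oligodendrocytes also transcribe, was the one called in PS19 against WT (log2 0.54 ± 0.14, edgeR adjusted p = 0.0479) and for the transgene average (log2 0.50 ± 0.10, edgeR adjusted p = 0.0237). Of 38 tested fibroblast and matrix genes outside the 33, Col16a1 was the one called in PS19 against WT (log2 0.67 ± 0.15, edgeR adjusted p = 0.0210), and of 20 endothelial markers Slc7a5, an amino acid transporter (log2 0.40 ± 0.10, edgeR adjusted p = 0.0419). Among all tested genes edgeR called 1.61% in PS19 against WT and 0.391% for the transgene average. In PS19 against WT, Col16a1 missed the threshold without WT_2, WT_4, PS19_1 or PS19_2 (edgeR adjusted p from 0.0671 to 0.127). Col16a1, Ppp1r14a and Slc7a5 stayed called there in 22, 10 and 8 of 28 other settings. None of 19 tested basement membrane genes and none of 17 tested transcription factor genes of mural cells and fibroblasts was called by edgeR in any comparison, and between 1 and 4 and between 0 and 3 of them had an unadjusted p under 0.05, where 3.65% to 10.02% of all tested genes had, depending on the comparison.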

How the data were processed

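The authors deposited 1 table of raw counts per gene for 16 libraries, with 49671 gene rows and 92 ERCC spike-in rows, and 49412 gene rows had a symbol in GENCODE M21. The submitters' processing notes name GRCm38 and, in no order, DESeq2, Subread 1.5.2, featureCounts, STAR 2.5.2b and Trimmomatic 0.36. Strand setting and annotation release were not given in the sources used here. Exons of 9 of the 33 members overlap another gene's. ERCC rows (0.574% to 1.06% of a library's counts) were left out, and CPM were computed over gene counts.

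Counts were fitted with edgeR 4.0.16 in R 4.3.3 (filterByExpr with a minimum count of 10, TMM, robust quasi-likelihood, all 16 libraries, 1 mean per group), with Benjamini-Hochberg adjustment over 16372 genes and a threshold of 0.05. Fold changes are log2, ± the standard error from the F statistic, and the procedure was tested on simulated data. DESeq2 1.42.0, limma-voom (limma 3.58.1) RLE size factors, other low-count filters, a replicate block, a library-name suffix term, a choroid plexus covariate, fits without robust dispersion or with only the groups compared, and fits without given libraries were alternatives. Replicates of a group differed by more than sampling noise (chi-square per degree of freedom 4.56 to 24.3 over 24 pairs). Count depth limits the precision of the low genes.

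The members and lists were chosen with earlier results of these data known. Per library, values are given for members called in any comparison, the 4 highest of each class by mean CPM and the 2 with the smallest p per class in each pairwise comparison and the interaction. Members named beyond these were chosen after their values were seen, including those at an unadjusted p under 0.05. Of the other lists, called genes are named, at most 4 per list and comparison.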

Additional observations from a re-analysis of the deposited data

Results flagged for a closer look

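In 92 groups of 4 libraries, 6 held a library whose CPM lay far from the other 3, where chance gives about 1 in 20 groups. In p16KO, p16KO_2 had 19.9 CPM of Myh11, against 9.08 CPM in the next library, and 4.42 CPM of Tagln, against 2 CPM. In PS19_p16KO, PS19_p16KO_3 had 251 CPM of Igf2, against 20.8 CPM in the next library, and PS19_p16KO_2 had 17.8 CPM of Dcn, against 41.4 CPM in the next lowest. In PS19, PS19_2 had 9.76 CPM of Acta2, against 6.61 CPM in the next library, and PS19_3 had 14.4 CPM of Col6a1, against 11.4 CPM. No explanation of these values was tested.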

How the results depend on the processing

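Members called by edgeR, DESeq2 or limma-voom stayed at 0 in the 7 comparisons under every setting run, each library left out included. Of the class medians under other settings, 572 stayed within 1 within-group SD of the class mean and 7 moved further. That SD was 0.17, 0.29 and 0.49 on the log2 scale for pericyte, smooth muscle and fibroblast genes, so a median could change sign within it. The fibroblast median of p16KO against WT did so, at 0.26 with all libraries and -0.12 without p16KO_2. Without WT_3 the fibroblast median of PS19 against WT was -0.14, and it was also -0.14 without WT_3 and p16KO_2, an alternative chosen after seeing the data. Without p16KO_2 the p16KO against WT medians were -0.03 for pericyte and 0.33 for smooth muscle genes (0.37 without both libraries), and the smooth muscle interaction was -0.23. Without PS19_p16KO_2 the pericyte median of PS19_p16KO against p16KO was -0.37. The cause of these shifts was not tested.

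With 1 library left out at a time, the pericyte medians ran from -0.02 to 0.20 in PS19 against WT, -0.03 to 0.24 in p16KO against WT, -0.24 to -0.07 in PS19_p16KO against PS19, -0.37 to -0.10 in PS19_p16KO against p16KO, -0.46 to -0.23 for the interaction, -0.02 to 0.08 for the knockout average and -0.14 to 0.00 for the transgene average. In the same order, smooth muscle medians ran from -0.17 to 0.05, 0.33 to 0.86, 0.05 to 0.17, -0.67 to -0.34, -0.73 to -0.23, 0.30 to 0.46 and -0.49 to -0.27. Fibroblast medians ran from -0.89 to -0.14, -0.12 to 0.62, -0.02 to 0.34, -0.74 to -0.26, -0.41 to 0.32, 0.05 to 0.57 and -0.75 to -0.38.

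Replicate numbers did not pair the samples: deviations of the 24 same-numbered pairs correlated at -0.388 to 0.223 (median -0.0274), with 6 over 0.1. With the replicate block, members called were 0 throughout, and the class medians of p16KO against WT were 0.20, 0.57 and 0.37 for pericyte, smooth muscle and fibroblast genes. The block gave 23 called genes for the knockout average, against 37 without it, and 5 for the interaction, against 1. It ended the calls of Tgfbr2 in PS19_p16KO against PS19 (log2 -0.66, edgeR adjusted p = 0.0503) and of Ppp1r14a and Slc7a5 in PS19 against WT (log2 0.54 and 0.40, edgeR adjusted p = 0.0877 and 0.117). With the library-name suffix term, members called were also 0 throughout. For the transgene average it gave 18 called genes, against 64 without it, and 6 members at an unadjusted p under 0.05, against 13. Called genes were 87 in PS19_p16KO against PS19, against 135, and 13 for the interaction, against 1. WT_3 and p16KO_2 share a value of this term with p16KO_1, PS19_3 and PS19_p16KO_2.

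Over all tested genes the calls in PS19 against WT were 264, and ran from 70 with only the groups compared in the fit to 438 without PS19_3. Those in PS19_p16KO against PS19 were 135, and ran from 8 to 347 under the same 2 settings. Fitting only the groups compared gives no interaction or averages, and Cnn1 and Higd1b fell below the filter of CPM above 1 in 4 libraries. Of the values for genes outside the 33, 337 kept their call and 138 lost it, all with the same direction. None of the 58 fold changes of named members changed sign, which does not cover the other members, some of which did: in p16KO against WT 11 of 13 fibroblast genes were positive, and 5 of 13 without p16KO_2.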
